A study of Mus musculus with 2 samples.

Results

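Transcripts of 10 genes of the heart muscle cell, *Actc1*, *Myl2*, *Myl3*, *Tnnt2*, *Tnni3*, *Tnnc1*, *Mb*, *Fabp3*, *Pln* and *Myh6*, were followed through the immune cells of the injured neonatal mouse heart. They were chosen by name as a list, with no measured value in the choice, and are 10 of the 32285 genes in the count tables. All 10 were detected. Hearts were taken at 9 days of age from mice given a myocardial infarction (MI) on postnatal day 2, that is 7 days after the injury. Live cells bearing CD45, the surface protein shared by white blood cells, had been sorted and counted by single-cell RNA sequencing of transcript 5′ ends. There was 1 library of wild-type (WT) hearts and 1 of *Lyve1* knockout (KO) hearts, in which the hyaluronan receptor gene *Lyve1* is lost in every cell and not in 1 cell type alone. Each library was a pool of 5 hearts, so no value below has a replicate, differences between genotypes cannot be told apart from differences between libraries, and no test between cells was made.

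Cardiomyocytes contract by sliding thin filaments of actin past thick filaments of myosin. *Actc1* encodes the cardiac actin of the thin filament, and *Tnnt2*, *Tnni3* and *Tnnc1* encode the troponin subunits that make it respond to calcium. *Myh6* encodes a cardiac myosin heavy chain, and *Myl2* and *Myl3* encode the light chains that bind to myosin heads. *Pln* encodes phospholamban, which holds back the calcium pump of the sarcoplasmic reticulum, *Mb* the oxygen-binding protein myoglobin, and *Fabp3* a carrier of fatty acids. On the mouse genome build GRCm38, the thin filament genes lie at chr2:114047282-114053548 (*Actc1*), chr1:135836354-135852260 (*Tnnt2*), chr7:4518305-4524229 (*Tnni3*) and chr14:31208312-31211729 (*Tnnc1*). The thick filament genes lie at chr14:54941921-54966927 (*Myh6*), chr5:122100951-122113472 (*Myl2*) and chr9:110741861-110769798 (*Myl3*), and the others at chr10:53337667-53345987 (*Pln*), chr15:77015487-77050670 (*Mb*) and chr4:130308595-130315463 (*Fabp3*). All are annotated as protein coding. White blood cells are not known as a source of the sarcomeric proteins. In single-cell data such transcripts can reach the barcode of another cell as free RNA, in a droplet that holds 2 cells or attached cell fragments, or with material that a phagocyte has engulfed.

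The WT library held 5713 barcodes with 67968938 transcripts counted by unique molecular identifier (UMI), and the KO library 5285 with 61555917. Limits on genes and mitochondrial reads, and removal of the highest doublet scores, left 4187 WT and 3391 KO cells with a median of 11106 and 12856 UMIs. They formed 31 clusters, named by marker lists without the 10 genes. A cluster stayed unnamed, however, where the 10 genes and further cardiomyocyte genes outnumbered its own list among its leading genes. *Lyve1*, the targeted gene, stood at 4.40 UMIs per 10,000 in WT and 0.208 in KO macrophage-like cells, with 459 UMIs left in the latter. In the other named classes it was low and higher in KO, at 0.00521 in WT and 0.101 in KO lymphocyte-like cells, among them 0.0107 and 0.516 in NK or ILC-like cells, and at 0.00120 and 0.0415 in monocyte-like cells. The macrophages, its main source in WT, thus followed the labels and the other named classes did not. *Ptprc*, which encodes CD45, was at 4.32 and 5.00 per 10,000 in macrophage-like cells and at 8.57 and 9.27 in lymphocyte-like cells. The libraries shared 9 barcodes.

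Macrophage-like cells held far more of the cardiomyocyte transcripts than lymphocyte-like cells (B cell-, T cell- and NK or ILC-like together) in both libraries. Per 10,000 UMIs, the 10 genes summed to 1.30 (95% exact Poisson interval 1.26 to 1.34; 4564 UMIs) in 1465 WT macrophage-like cells and to 0.0469 (0.0352 to 0.0612; 54 UMIs) in 773 WT lymphocyte-like cells. In KO they summed to 1.20 (1.16 to 1.25; 2653 UMIs) in 787 macrophage-like cells and to 0.0319 (0.0235 to 0.0423; 48 UMIs) in 889 lymphocyte-like cells. The macrophage-like level was therefore 27.8 times the lymphocyte-like level in WT (21.2 to 37.0) and 37.8 times in KO (28.4 to 51.4). These intervals, like all below, cover counting error only. The ratio depended on how cells were weighted. When each cell counted equally, it was 5.96 in WT and 37.8 in KO. A WT B cell-like cell of 989 UMIs held 10 of the 54 lymphocyte-like UMIs, and so shallow a cell weighs more in that mean. The mean without it was not computed. When every cell was thinned to 3800 UMIs, the ratio was 57.3 (26.2 to 157) in WT and 74.4 (35.8 to 186) in KO. Only 6 thinned lymphocyte-like cells in each library held any of these UMIs, and these intervals overlap those above.

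The remaining classes lay between the macrophages and the lymphocytes or among the latter. Neutrophil-like cells came next, at 0.282 per 10,000 in WT (0.224 to 0.351; 80 UMIs) and 0.387 in KO (0.320 to 0.463; 117 UMIs). Monocyte-like cells, which include the blood precursors of many macrophages, held 0.129 in WT (0.106 to 0.156) and 0.0657 in KO (0.0510 to 0.0832). B cell-like cells held 0.0671 and 0.0369, dendritic cell-like cells 0.0600 and 0.0695, and T cell-like cells 0.0291 and 0.0314. No UMI of any of the 10 genes was seen in NK or ILC-like or in mast cell or basophil-like cells. The NK or ILC-like class was a single cluster led by *Areg*, *Il13* and *Csf2* (47 WT and 55 KO cells). A cluster led by *Ccl5*, *Nkg7* and *Ms4a4b*, nearest to the T cell list, stayed unnamed and outside the classes. It held 1 UMI of the 10 genes in 90 WT cells and 11 in 145 KO cells (0.0435 per 10,000). Taken as 3 counts, the limit set by a count of 0 was 0.0320 and 0.0224 per 10,000 in NK or ILC-like cells of WT and KO, and 0.0945 and 0.148 in mast cell or basophil-like cells. In WT, neighbours in the order macrophage, neutrophil, monocyte, B cell had intervals that did not overlap, whereas the lower classes overlapped. The monocyte place rested on 1 cell with 56 of the 107 UMIs. Without it the level was 0.0615 (0.0458 to 0.0809; 51 UMIs), an interval that overlapped that of B cell-like cells. B cell-like cells without their own highest cell were at 0.0507, so no order of these classes was shown. In KO, macrophages and neutrophils stood apart from each other and from the rest, and the intervals of the other classes overlapped with a neighbour.

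**Figure D1:**
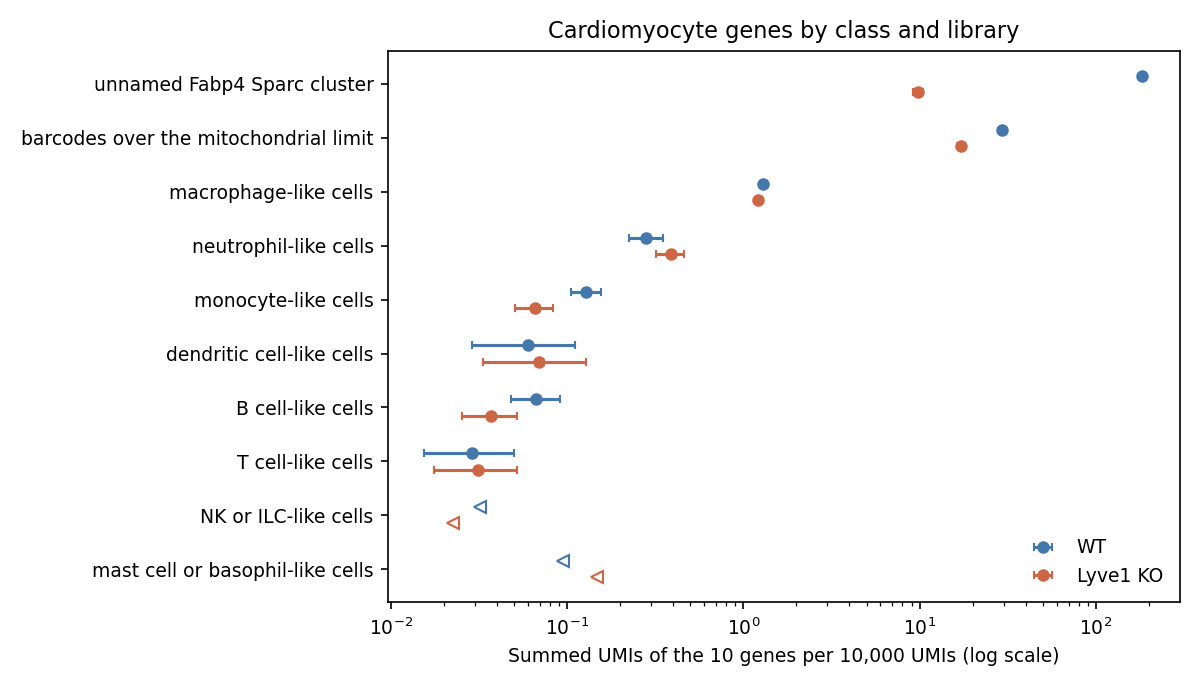
Summed UMIs of the 10 cardiomyocyte genes per 10,000 UMIs (logarithmic axis) in each class of cells and each library, with 95% exact Poisson intervals. Left-pointing triangles mark classes with no such UMI, at the level that 3 counts would give. Macrophage-like cells stood at 1.30 in WT and 1.20 in KO, above every other named immune class, and the unnamed cluster led by *Fabp4*, *Sparc* and *Col4a1* and barcodes over the mitochondrial limit stood higher still.

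All 10 genes were higher in macrophage-like than in lymphocyte-like cells of both libraries, with ratios from 11.9 to 136. Among the thin filament genes, *Actc1* was at 0.217 per 10,000 in WT macrophage-like cells (760 UMIs) and 0.00608 in WT lymphocyte-like cells (7 UMIs), a ratio of 35.7 (17.2 to 89.0). In KO it was at 0.180 (397 UMIs) against 0.00133 (2 UMIs), a ratio of 136 with an interval of 37.3 to 1125. *Actc1* was the most counted of the 10 genes in the macrophages of both libraries, a ranking of 5′ end counts that are not scaled by gene length. For the troponins, *Tnnt2* was at 0.153 and 0.156 per 10,000 in WT and KO macrophage-like cells, *Tnni3* at 0.0924 and 0.0854, and *Tnnc1* at 0.0944 and 0.0763. Their macrophage to lymphocyte ratios were 25.1 and 39.2 for *Tnnt2*, 21.3 and 42.9 for *Tnni3*, and 54.3 and 16.4 for *Tnnc1*. The lymphocyte-like counts behind them were 2 to 7 UMIs, and within each gene the intervals of the 2 libraries overlapped.

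The thick filament genes gave the same picture. *Myl2* was at 0.180 per 10,000 in WT and 0.149 in KO macrophage-like cells, and 4 lymphocyte-like UMIs in each library gave ratios of 51.9 (20.2 to 191) and 56.1 (21.7 to 207). *Myl3* was at 0.134 and 0.148, with ratios of 19.3 (9.73 to 45.0) and 44.7 (19.0 to 139). *Myh6* was at 0.0841 and 0.0708 and had the lowest ratio of the 10 genes in both libraries, 16.1 (7.33 to 44.3) and 11.9 (6.09 to 26.4). Its lymphocyte-like count was the highest of the 10 genes in KO, at 9 UMIs, and was 6 UMIs in WT.

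The genes of calcium handling and fuel supply were also higher in macrophages. *Pln*, the least counted of the 10, was at 0.0582 and 0.0617 per 10,000 in WT and KO macrophage-like cells, 33.5 (9.15 to 278) and 31.0 (10.4 to 152) times the lymphocyte-like level. *Mb* was at 0.119 and 0.133, with ratios of 19.6 (9.43 to 49.1) and 33.5 (15.2 to 92.0). *Fabp3* was at 0.169 and 0.143, with ratios of 32.5 (14.8 to 88.8) and 71.8 (24.3 to 350). The interval of *Myh6* in KO ended below the start of that of *Actc1*, and with lymphocyte counts this low the order of the other genes was not detectable.

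**Figure D2:**
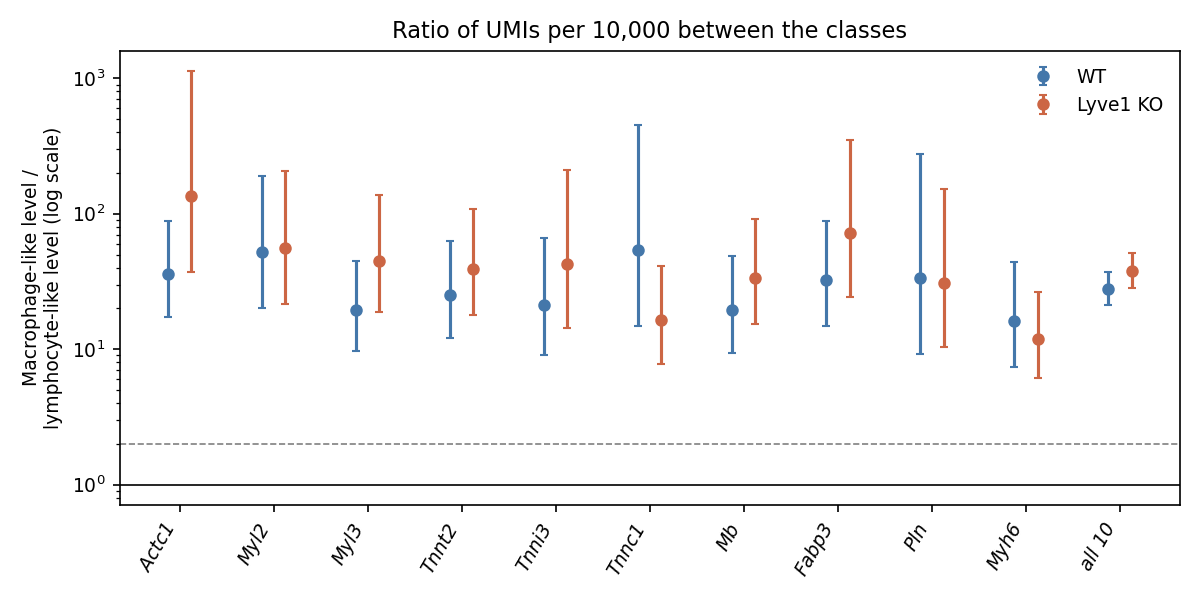
Ratio of the macrophage-like to the lymphocyte-like level (UMIs per 10,000, logarithmic axis) for each of the 10 genes and for their sum in WT and KO, with 95% intervals from the counts. The dashed line marks a ratio of 2. Every interval lay above the line, from 11.9 for *Myh6* in KO to 136 for *Actc1* in KO.

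A ratio of 2 or more was common in this contrast, and a ratio of the size seen here was not typical. Of 14636 genes with at least 20 UMIs in the 2 classes of WT, 23.5% were at least 2-fold higher in macrophage-like cells, against 10 of the 10 cardiomyocyte genes. In KO it was 21.4% of 14262 genes, again against 10 of 10. The median ratio of the 10 genes was 28.8 in WT and 41.0 in KO, where the median of all genes was 0.898 and 0.845.

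A further list of 30 cardiomyocyte genes was less uniform, and its summed ratio was 1.46 (1.38 to 1.54) in WT and 1.58 (1.49 to 1.66) in KO. Of those with 20 UMIs or more, 19 of 25 in WT and 19 of 24 in KO were at least 2-fold higher in macrophage-like cells, with a median ratio of 9.22 and 12.7. Its most counted gene, *Atp2a2*, encodes the calcium pump that phospholamban restrains and is used by many cell types. It was at 1.02 per 10,000 in WT macrophage-like and 1.01 in WT lymphocyte-like cells (ratio 1.01), and at 1.14 and 0.966 in KO (ratio 1.18). *Eno3*, a muscle enolase, had ratios of 1.29 and 2.28, and *Ttn*, the giant sarcomere protein titin, of 2.87 and 4.44. *Actn2*, which encodes an actinin of the sarcomere, lay the other way at 0.417 and 0.288, as did *Ryr2*, the calcium release channel, in WT (0.357, and 1.39 in KO).

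Genes of other heart cells were counted in the same way. The fibroblast list summed to 0.239 per 10,000 in WT macrophage-like cells (837 UMIs) and 0.00781 in WT lymphocyte-like cells (9 UMIs), a ratio of 30.5 (16.0 to 67.0), and in KO to 0.242 and 0.0113, a ratio of 21.4 (13.3 to 37.1). All 9 of its genes with enough UMIs in WT and all 8 in KO were at least 2-fold higher in macrophages, among them the collagen gene *Col3a1* (168 against 1 UMI in WT, 117 against 0 in KO) and *Dcn* (154 against 2, 99 against 0) and *Postn* (81 against 0, 46 against 2), which encode matrix proteins. The endothelial list had a smaller ratio, 4.99 (3.64 to 7.02) in WT and 5.05 (3.71 to 7.00) in KO. *Egfl7*, *Kdr* and *Cdh5*, its only 3 genes of 10 with enough UMIs in each library, were each at least 2-fold higher in macrophages. *Egfl7* alone gave 417 of the list's 623 WT and 162 of its 347 KO macrophage-like UMIs. The other genes had too few UMIs for a fold, and *Sox17* had no UMI in either class.

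The erythroid list ran the other way. Its haemoglobin genes *Hbb-bs*, *Hbb-bt* and *Hba-a1* and the rest of the list summed to 0.386 per 10,000 in WT macrophage-like and 0.938 in WT lymphocyte-like cells, a ratio of 0.411 (0.379 to 0.446). In KO the sums were 0.0658 and 0.0856, a ratio of 0.769 (0.602 to 0.982). None of its 4 genes with enough UMIs was 2-fold higher in macrophages in either library. The mural list, of pericyte and smooth muscle genes, had ratios of 1.71 in WT and 5.56 in KO, with 2 of 4 and 4 of 5 genes 2-fold higher, and its most counted gene *Rgs5* had 28 macrophage-like UMIs against 0 in WT and 21 against 4 in KO. *Acta2* had 97 and 74 macrophage-like UMIs and none in lymphocytes, and *Tagln* had ratios of 1.69 and 8.48. The epicardial list summed to 33 and 14 macrophage-like UMIs and to 1 lymphocyte-like UMI in each library, and *Krt19* had none.

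Lists of other leukocytes were read as a further comparison. The B cell list was at 1.70 and 1.50 per 10,000 in WT and KO macrophage-like cells, and the T cell list at 0.162 and 0.133. Of these UMIs, *Ighm* gave 1.20 and 1.05, *Cd79b* 0.363 and 0.298, and *Cd4* 0.141 and 0.116. The most counted T cell gene, *Trbc2*, was at 0.00399 and 0.00272 in macrophages, below each of the 10 cardiomyocyte genes. The neutrophil list was 16.2 and 7.50 times higher in macrophage-like than in lymphocyte-like cells, with *S100a8* at ratios of 3.49 and 2.89 and *S100a9* at 0.766 and 0.802. Of its 2418 WT and 1821 KO macrophage-like UMIs, *Csf3r* gave 1561 and 1045, and *Mmp9* 627 and 424. The macrophage list itself was at 1.14 and 1.21 per 10,000 in lymphocyte-like cells, where the 10 cardiomyocyte genes were at 0.0469 and 0.0319. What part free RNA, doublets or engulfed material had in the cardiomyocyte counts was not tested.

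Within the macrophages, the 10 genes were unevenly spread over clusters. The cluster led by *Folr2*, *Fcna* and *Ccl7*, which also listed *Lyve1* among its leading genes, held the most, at 3.28 per 10,000 in 172 WT cells and 2.95 in 118 KO cells. Without thinning, at least 1 such UMI was seen in 88.4% and 86.4% of its cells, at a median of 27277 and 29744 UMIs a cell. The largest cluster, led by *Fcrls*, *Ms4a7* and *Cx3cr1*, was at 1.35 in WT (660 cells) and 1.98 in KO (245 cells). Its share of cells with such a UMI was 54.7% and 55.1%, at a median of 21189 and 22060 UMIs a cell. A cluster led by the non-coding *Gm26917*, with *Psd3* and *Mir99ahg*, was at 1.46 and 2.65. Its cells were shallower than the rest of the class, with a median of 5810 and 4662 UMIs. The dividing cluster led by *Mki67* was at 0.876 and 0.659. Lowest were the cluster led by *Spp1* and the antigen presentation genes *H2-Ab1* and *H2-Aa*, at 0.489 and 0.179, and that led by *Saa3*, *Marco* and *Prg4*, at 0.301 and 0.271.

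The *Folr2*-led cluster therefore held 34.1% of the macrophage UMIs of the 10 genes in WT and 39.7% in KO, with 11.7% and 15.0% of the cells. Against the other macrophage clusters it was higher for each of the 10 genes in each library. The summed ratio was 3.30 (3.11 to 3.51) in WT and 3.40 (3.14 to 3.67) in KO. Single genes ranged from 2.67 for *Fabp3* to 4.05 for *Myl3* in WT and from 2.06 for *Fabp3* to 5.16 for *Myh6* in KO. Genes of other heart cells were also higher in this cluster. The fibroblast list was 2.48 and 3.71 times higher, the endothelial list 2.74 and 1.92 times, and the further cardiomyocyte list 1.60 and 1.46 times. The erythroid list was 1.74 times higher in WT and 1.52 times in KO (0.999 to 2.26). Their part in the result was not tested. Without this cluster the macrophage to lymphocyte ratio of the 10 genes was 21.2 in WT and 27.2 in KO.

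**Figure D3:**
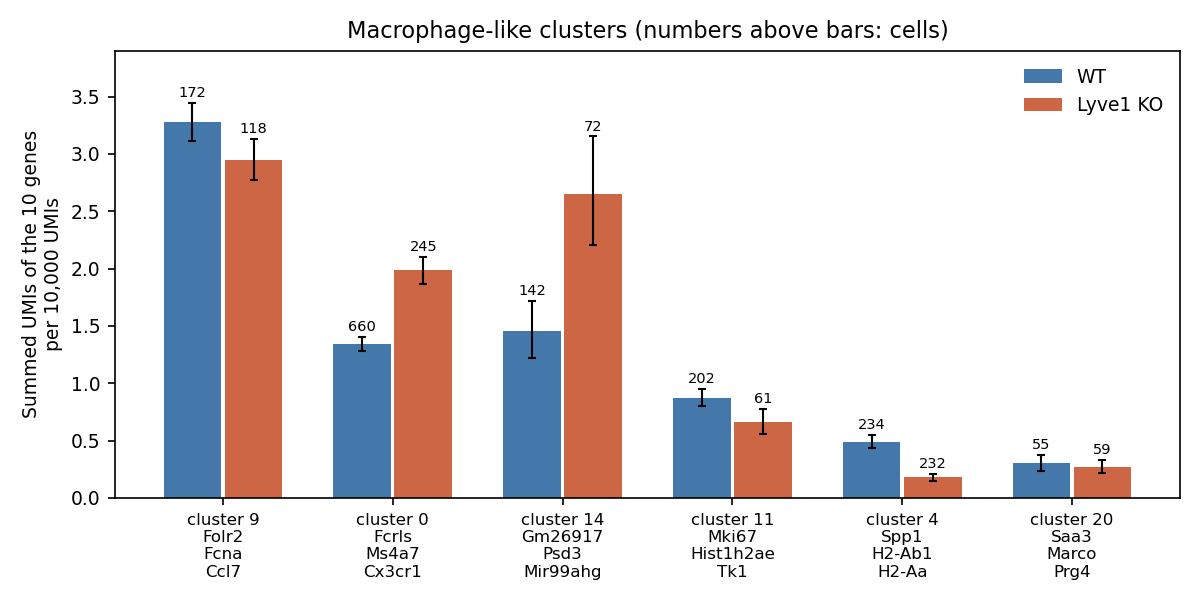
Summed UMIs of the 10 genes per 10,000 UMIs in each of the 6 macrophage-like clusters of WT and KO, with 95% exact Poisson intervals and the number of cells above each bar. The *Folr2*-led cluster was the highest in both libraries (3.28 and 2.95), and the *Saa3*- and *Spp1*-led clusters were the lowest.

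Many macrophages carried a few cardiomyocyte UMIs and a few cells carried many. Without thinning, 52.4% of WT and 46.3% of KO macrophage-like cells had at least 1 UMI of the 10 genes, at a median of 22680 and 25058 UMIs a cell, against 3.49% and 4.05% of lymphocyte-like cells at 10080 and 12581. Thinned to 3800 UMIs, the share was 24.5% of 1391 WT macrophage-like cells (95% Clopper-Pearson interval 22.3 to 26.9) and 20.2% of 734 KO cells (17.3 to 23.3). In thinned lymphocyte-like cells it was 1.01% of 597 WT cells (0.370 to 2.17) and 0.749% of 801 KO cells (0.275 to 1.62). Thinning left out 74 and 53 macrophage-like and 176 and 88 lymphocyte-like cells that were shallower. At equal depth the macrophage share was above the lymphocyte share in both libraries. These intervals count cells of a library, which are not replicates, and the difference was not tested.

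The macrophage UMIs were concentrated in few cells. After thinning, the variance of the summed UMIs was 6.83 times their mean in WT and 25.5 times in KO macrophage-like cells. Independent counts of a uniform level would give a ratio near 1. The thinned lymphocyte-like cells held too few UMIs of the list to read a spread from. In macrophages, 50% of the thinned UMIs lay in 51 WT cells (3.67%) and in 8 KO cells (1.09%). The 5% of cells with the most held 57.4% and 71.9%. Such shares were not particular to macrophages, since sparse counts also give them. In thinned neutrophil-like cells they were 54.3% in WT and 69.6% in KO, at a variance of 1.25 and 4.55 times the mean.

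**Figure D4:**
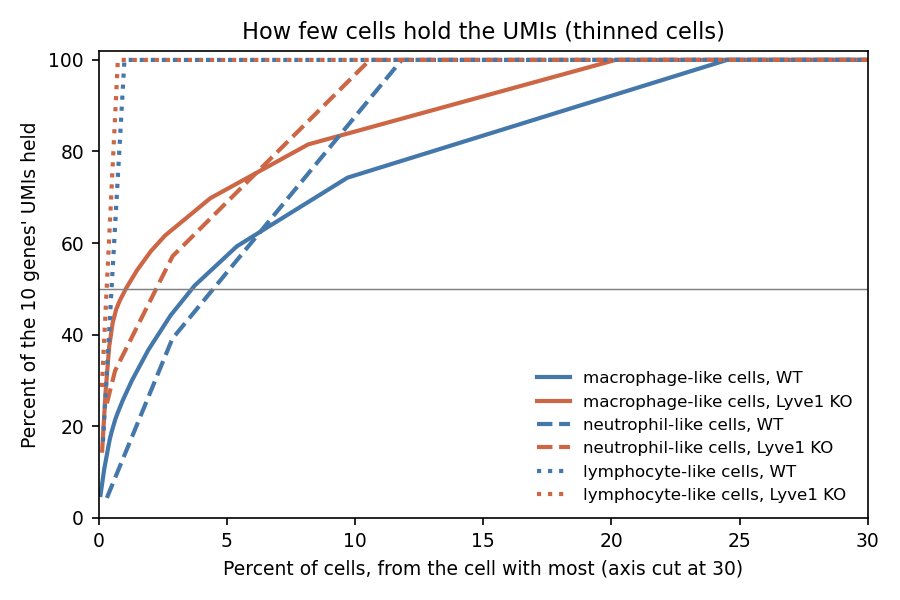
Cumulative percent of the UMIs of the 10 genes against the percent of cells, ordered from the cell with the most, after thinning to 3800 UMIs a cell, for macrophage-like (solid), neutrophil-like (dashed) and lymphocyte-like (dotted) cells of WT and KO. The grey line marks 50% and the horizontal axis ends at 30% of cells. The first 5% of macrophage-like cells held 57.4% of these UMIs in WT and 71.9% in KO. For neutrophil-like cells it was 54.3% and 69.6%.

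Cells with many cardiomyocyte UMIs held most of the list and not 1 gene alone. In WT, 106 macrophage-like cells had 10 or more UMIs and a median of 7 of the genes (3 to 10), and in KO 44 cells had a median of 7.5 (5 to 10). These cells held 58.1% and 65.9% of the class's UMIs of the list. The KO cell with the most had 407, of which 81 were *Actc1*, 58 *Myl3*, 54 *Fabp3* and 52 *Mb*, in 32670 UMIs in all. That 1 cell held 15.3% of the KO macrophage count. The next KO cells had 231 and 170. In WT the 3 highest cells had 186, 182 and 79, of 42313, 37301 and 23905 UMIs, so that no single cell held more than 4.08% of the class. All 10 genes were seen in 5 of these 6 cells, and the WT cell with 79 lacked *Myh6*.

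*Actc1* marked cells that held the other 9 genes. In thinned macrophage-like cells, the 89 WT cells with an *Actc1* UMI held 3.01 UMIs of the other 9 genes per cell, and the 1302 without held 0.307. In KO it was 5.00 in 43 cells and 0.266 in 691. There the 0.409% of cells with the most held 37.3% of the thinned UMIs of the list, and values without them were not computed. The further cardiomyocyte list moved the same way, with 2.33 against 0.693 UMIs per cell in WT and 2.49 against 0.705 in KO. Lists of other heart cells had smaller ratios, from few UMIs in the cells with *Actc1*. These were 15 fibroblast, 11 endothelial and 18 erythroid UMIs in WT, and 6, 2 and 1 in KO. For each of these lists the intervals with and without *Actc1* overlapped in both libraries, so the size of their ratios is uncertain. The fibroblast list was at 0.169 against 0.0991 in WT and 0.140 against 0.0883 in KO, the endothelial list at 0.124 against 0.0676 and 0.0465 against 0.0637, and the erythroid list at 0.202 against 0.194 and 0.0233 against 0.0260. No test over cells was made of these differences.

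The balance among the 10 genes was close in the macrophages of both libraries, where no gene's share had intervals apart between WT and KO. *Actc1* made up 16.7% of the list's UMIs in WT and 15.0% in KO macrophage-like cells, *Myl2* 13.8% and 12.4%, *Fabp3* 13.0% and 11.9%, and *Pln*, the least, 4.47% and 5.13%. In barcodes over the mitochondrial limit, which were left out of the classes, 5 of the 10 shares had intervals apart from those of macrophages in WT and 0 in KO. In WT these barcodes had more *Myl2* (17.3%) and *Pln* (6.80%) and less *Fabp3* (10.5%), *Tnnc1* (5.11% against 7.25%) and *Tnni3* (5.35% against 7.10%). *Actc1*, the most counted gene there too, made up 18.1% and 16.6%. The intervals take UMIs as independent, while single cells held many at once, so intervals apart do not by themselves show a different mixture.

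Other myeloid classes held another mixture. In neutrophil-like cells *Myl2* made up 53.8% of the list's UMIs in WT and 55.6% in KO. Its neutrophil-like level was 0.152 per 10,000 in WT (0.110 to 0.204) and 0.215 in KO (0.166 to 0.274), so that KO macrophages held 0.693 times as much (0.530 to 0.919). *Actc1*, by contrast, was 7.67 and 6.06 times higher in macrophages than in neutrophils. Most neutrophils with the genes had 1 or few UMIs, and the 18 WT and 17 KO cells with 2 to 4 had a median of 1 gene. The exceptions were a KO cell with 21 UMIs of 8 genes and a WT cell with 10 UMIs of 7 genes. In monocyte-like cells *Fabp3* made up 70.1% in WT and 32.4% in KO. A single WT monocyte-like cell held 56 UMIs of *Fabp3* and no other gene of the list, which was 52.3% of the class's 107. Level and composition of the WT monocytes thus rested largely on 1 cell and 1 gene.

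**Figure D5:**
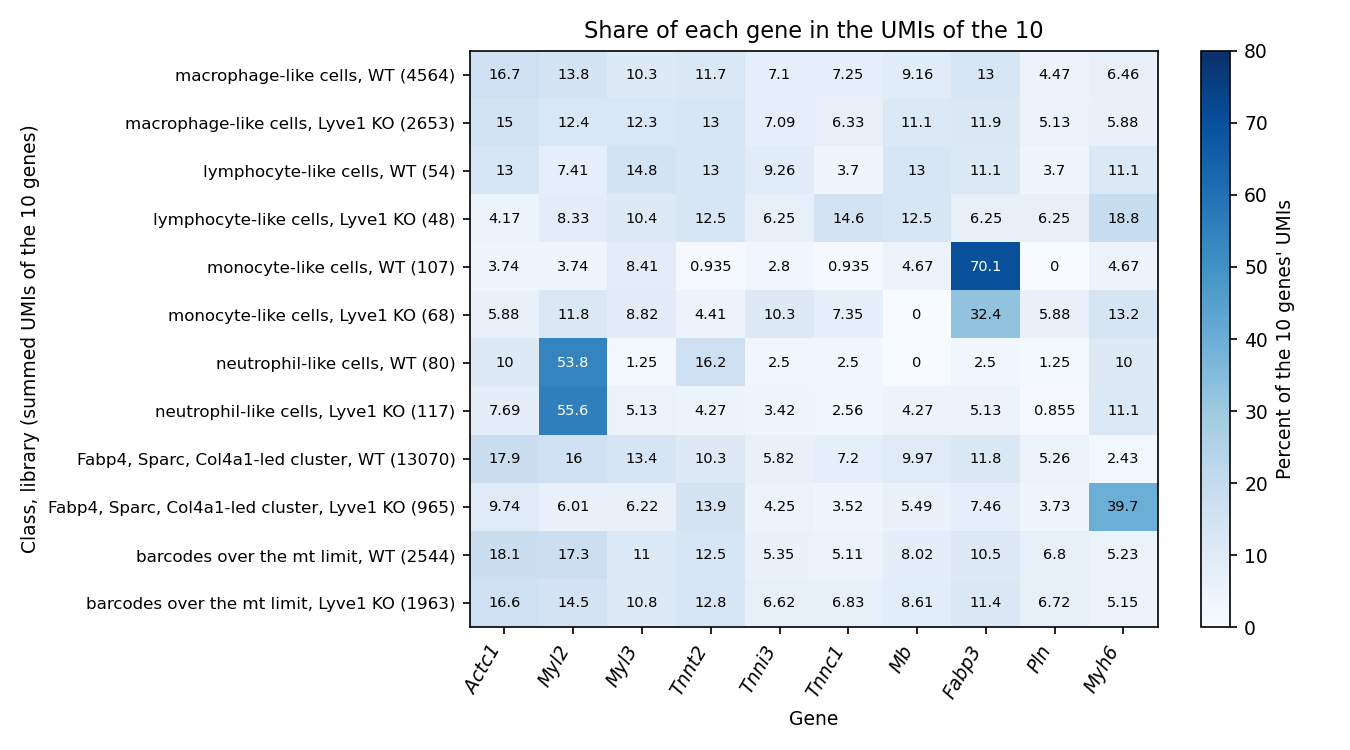
Share of each gene, in percent, among the UMIs of the 10 genes in each class of cells and library, as a heatmap with 1 row per class and library. Macrophage-like cells of both libraries had a spread-out mixture led by *Actc1* (16.7% and 15.0%), neutrophil-like cells were led by *Myl2* (53.8% and 55.6%), and WT monocyte-like cells by *Fabp3* (70.1%).

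In macrophage-like cells the level of the 10 genes moved with the mitochondrial share of the cell, and the reason was not tested. The splits below took each class as a whole and were not made within clusters, which differed in median mitochondrial share. It was 1.35% and 1.40% in WT and KO of the *Spp1*-led cluster and 4.62% and 4.45% in the *Gm26917*-led one. The *Folr2*-led cluster, with the highest level, was at 1.78% in both libraries. Barcodes over the mitochondrial limit, described below, held 29.3 per 10,000 in WT and 17.2 in KO. Split into 4 equal parts by mitochondrial share, WT macrophage-like cells held 0.787, 1.25, 1.41 and 1.99 per 10,000 from the lowest to the highest part, and KO cells 0.451 in the lowest, 2.55 in the highest and values between them, not in order, in the middle parts. Among lymphocyte-, monocyte- and neutrophil-like cells the highest part also held the highest level, except in WT monocyte-like and KO neutrophil-like cells. By depth, WT macrophages held 1.82 in the shallowest part and 1.32, 1.32 and 1.19 in the others, and KO macrophages 4.25, 1.16, 1.81 and 0.406. The shallowest part was the highest in both libraries. The KO values of both splits leaned on single cells. The KO cells with 231 and 170 UMIs of the list had 13313 and 11369 UMIs in all, and 3.62% and 6.21% mitochondrial UMIs. The KO cell with 407 had 32670 and 1.65%. The parts without these cells were not computed. In WT lymphocyte-like cells the shallowest part held 0.541 and the others 0.0149 to 0.0504, and in KO 0.0880 against 0.0252 to 0.0351. A single WT B cell-like cell of 989 UMIs, with 14.2% mitochondrial UMIs, held 10 of the 54 lymphocyte-like UMIs. The low-depth B cell-like cluster led by *Gm26917*, *Ebf1* and *Aff3*, to which it belonged, held 18 of them. With stricter limits on genes and mitochondrial share, the WT macrophage to lymphocyte ratio was 45.4.

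The macrophage level of the 10 genes differed little between the genotypes and its direction was not stable. The KO level was 0.926 times that of WT (0.882 to 0.971), and single genes ranged from 0.808 for *Tnnc1* to 1.12 for *Mb*. None of the 10 was 2-fold apart, where 5.83% of 14255 genes were, and none was 2-fold lower, where 2.68% were. The median ratio was 0.885 for the 10 genes and 0.933 for all genes. Counted per cell the ratio was 1.08, as a mean over cells 1.09 and after thinning 1.13, and without the highest cell of each class and library it was 0.817. The clusters entered in different shares, with the *Fcrls*-led cluster at 45.1% of WT and 31.1% of KO macrophage-like cells and the *Spp1*-led cluster at 16.0% and 29.5%. In a clustering on all variable genes, with the 10 genes among them, the ratio was 0.709. It was 0.319, with 9 of the 10 genes 2-fold apart, when an unnamed *Lyve1*-led cluster of that clustering was counted with the macrophages. That cluster took in 8 WT cells of the unnamed *Fabp4*-led cluster described below, which held 12835 of its 14944 WT UMIs of the list. Within clusters the direction differed, being lower in KO in the *Folr2*-, *Mki67*-, *Spp1*- and *Saa3*-led clusters and higher in the *Fcrls*- and *Gm26917*-led ones. The higher levels of these last clusters rested on single KO cells, with 407 and 68 UMIs of the list. Without the highest cell of each cluster and library, the KO to WT ratio was 0.983 (0.901 to 1.07) in the *Fcrls*-led and 1.06 (0.758 to 1.46) in the *Gm26917*-led cluster, where it had been 1.48 and 1.82. The other clusters stayed lower in KO without these cells. The ratio was 0.396 (0.310 to 0.503) in the *Spp1*-led and 0.607 (0.486 to 0.751) in the *Mki67*-led cluster. It was 0.793 (0.727 to 0.865) in the *Folr2*-led and 0.907 (0.648 to 1.27) in the *Saa3*-led cluster, where the interval included 1. All these intervals take UMIs as independent, while the variance of thinned macrophage counts was 6.83 (WT) and 25.5 (KO) times their mean. The intervals are therefore too narrow for the spread between cells, and no difference between genotypes was tested.

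In lymphocyte-like cells the KO level was 0.680 times that of WT, with an interval of 0.451 to 1.02 that included 1. None of the 10 genes had the 20 UMIs needed there for a fold, in a contrast where 6.96% of 13090 genes were 2-fold apart. In macrophages the further cardiomyocyte list had a KO to WT ratio of 1.04 (0.996 to 1.08) and the fibroblast list of 1.01. Of the former's 27 genes with 20 UMIs or more, 2 were at least 2-fold higher in KO and 4 lower, with a median ratio of 0.893. Of all genes, 5.83% were 2-fold apart. *Atp2a2* gave 3583 of that list's 6803 WT and 2510 of its 4421 KO UMIs. The endothelial list was at 0.887 (0.776 to 1.01), with 1 of 4 genes 2-fold higher, 0 lower and a median ratio of 1.26. The mural list was at 1.53 (1.28 to 1.84), with 1 of 5 genes 2-fold higher, 0 lower and a median ratio of 1.22. The erythroid list was at 0.171 (0.143 to 0.203) in macrophages and 0.0913 in lymphocytes, far from the ratio of the cardiomyocyte genes in both classes.

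The highest levels per 10,000 lay outside the named classes. By count this held in WT but not in KO, where macrophage-like cells held the most, at 2653 UMIs. An unnamed cluster of 35 WT and 39 KO cells, led by *Fabp4*, *Sparc* and *Col4a1*, had the endothelial list as its nearest and *Ptprc* at 0.324 and 0.753 per 10,000. *Actc1* and *Myl2* were among its 10 leading genes, although none of the 10 genes was used in the clustering. Under the naming rule, these leading cardiomyocyte genes kept the cluster unnamed. It held 184 UMIs of the 10 genes per 10,000 in WT (13070 UMIs) and 9.82 in KO (965 UMIs). In WT 2 of its cells had 8154 and 2854 of these UMIs, and in KO 1 cell had 558, of which 357 were *Myh6*. Barcodes over the mitochondrial limit held 29.3 per 10,000 in WT and 17.2 in KO, with *Ptprc* at 0.484 and 0.323. Low-depth unnamed clusters held 1.91 and 1.55.

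Across the 5 classes with at least 50 cells in each library, 10 profiles in all, single genes of the list followed the sum of the other 9 to different degrees. *Myh6* was the most like it (Pearson r 0.975), then *Actc1* (0.924) and *Tnnt2* (0.913), and *Myl2* (0.773) and *Fabp3* (0.714) were the least. Among 12487 genes outside the list, the 10 with the most similar profile to the summed list were *Gm3336* (0.991), *Lhfpl2* (0.986), *Rbpj* (0.967), *Iqcn* (0.966), *Peg10* (0.965), *Ppp1r10* (0.963), *Sema6b* (0.962), *Creb5* (0.960), *Retnla* (0.959) and *Dtx4* (0.956). The profiles come from the same 2 libraries and share depth and class, so these values describe the likeness and no p was computed.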

How the data were processed

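The authors deposited raw UMI counts per gene and barcode for each library, made from 10x Genomics 5′ libraries with Cell Ranger (8.0.1 in the submitters' processing notes) on the mm10 build. Gene positions were read from the annotation of that build. The deposited barcodes had 500 UMIs or more. Barcodes with fewer than 500 genes, fewer than 250 UMIs or more than 30% mitochondrial UMIs were left out (601 WT and 874 KO over the last limit), as the study's methods state. The assignment of cells to single hearts was not used here. Scrublet, in scanpy 1.11.5, called 1 WT and 4 KO doublets by itself, so the highest scores at 0.4% per 1000 barcodes were left out instead (98 WT, 73 KO).

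Cells were integrated in Seurat 5.3.0 (R 4.3.3; 30 dimensions, 20 neighbours, resolution 0.8, S and G2/M scores regressed) on 1944 of 2000 variable genes, without the 10 genes, other non-immune lists, *Lyve1* and sex-linked genes. A cluster was named when at least 3 markers of a list were each in 25% of its cells, and stayed unnamed where another list led its 10 leading genes or its depth was under 1/3 of its sample's median with no marker leading. The 10 genes and the further cardiomyocyte list together counted as such another list. This scoring was set after seeing the data. A rebuilt class may differ from the study's.

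Levels are UMIs summed over the cells of a class, divided by their total UMIs, times 10,000 (Python 3.11.15, numpy 2.4.6, scipy 1.17.1), with exact Poisson, Clopper-Pearson or conditional binomial 95% intervals. With 1 library per genotype no p-value was computed. Folds were read for genes with at least 20 UMIs in the 2 groups, at 2-fold. The genes named are the 10, the 3 most counted of each heart or blood list compared and any with none (1 such gene is not reported here), *Lyve1*, the leading genes of clusters, and the 10 most similar profiles (Pearson r of log2 of the level plus 0.05, genes with 200 UMIs or more). *Ptprc*, *Actn2*, *Ryr2*, *Cd4*, *Csf3r*, *Mmp9*, the B cell and T cell genes and *Myl2* in neutrophils were picked after their values were seen. The genes and lists were chosen with earlier results of these data known.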

Additional observations from a re-analysis of the deposited data

Results flagged for a closer look

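The 10 cardiomyocyte genes were also counted in barcodes that entered no comparison of classes, and each value exceeded what a count of 0 allows. The unnamed cluster led by *Fabp4* and *Sparc* held 184 UMIs of the 10 genes per 10,000 in WT and 9.82 in KO. Unnamed clusters of low depth held 1.91 and 1.55. Barcodes over the mitochondrial limit held 29.3 and 17.2, and those under the gene limit alone 10.2 and 2.80. Barcodes left out as doublets held 0.963 and 0.181. They were picked by score over all cells of a library, so their level is not comparable with that of 1 class.

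The KO to WT ratio of the summed genes lay on both sides of 1 among the classes. It was 1.37 in neutrophil-like cells (1.02 to 1.84), 0.926 in macrophage-like cells, 0.510 in monocyte-like cells (0.370 to 0.697) and 0.550 in B cell-like cells (0.337 to 0.892). The difference between classes was not tested, since each genotype had 1 library. Single cells weighed on these values. In monocyte-like cells, 56 of the 107 WT UMIs were *Fabp3* in 1 cell, and without it the WT level was 0.0615 per 10,000 against 0.0657 in KO. In B cell-like cells 1 WT cell held 10 of 41 UMIs, and in neutrophil-like cells 1 KO cell held 21 of 117. Without the highest cell of each class and library, an alternative chosen after seeing the data, the ratios were 0.927 (0.627 to 1.38) in monocyte-like, 0.578 (0.330 to 1.01) in B cell-like and 1.28 (0.932 to 1.77) in neutrophil-like cells, and each interval included 1.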

How the results depend on the processing

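All 10 genes stayed at least 2-fold higher in macrophages than in lymphocytes in both libraries under the 14 alternatives that left lymphocytes any of their UMIs, counting a gene at 0 in lymphocytes as higher. Of these, 5 were added after seeing the data. The size of the ratio moved. In WT (27.8 as reported) it was 45.4 with stricter limits, 19.7 with doublets kept, 5.96 as a mean over cells, 57.3 (26.2 to 157) after thinning, 44.6 per cell, 21.2 without the *Folr2*-led cluster and 40.2 without clusters led by *Gm26917* or of low depth. In KO (37.8) it was 74.4 (35.8 to 186) after thinning, 62.4 per cell, 27.2 without the *Folr2*-led cluster and 19.5 when clustering used all variable genes. With the unnamed *Lyve1*-led cluster of that clustering added, it was 137 in WT and 55.5 in KO. The KO to WT ratio in macrophages (0.926) was 1.09 as a mean over cells, 1.13 after thinning, 1.08 per cell, 0.662 without the 5% of cells with the most, 0.817 without the highest cell, 0.875 without the *Folr2*-led cluster, 0.709 with all variable genes and 0.319 with the unnamed cluster added, where 9 genes instead of 0 were 2-fold apart. In lymphocytes (0.680) it was 1.06 with stricter limits and 0.173 as a mean over cells. The WT mean over cells includes the B cell-like cell of 989 UMIs with 10 of the list, and was not computed without it. Apart from the makeup of the settings themselves, the cause of these shifts was not tested. Leaving out the 5% of cells with the most UMIs left lymphocytes with none, so that no ratio to them could be had. No paired analysis was possible because each genotype has 1 library. Lymphocyte counts of 2 to 9 UMIs per gene limit the order of single genes.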
